A study of Mus musculus with 9 samples.

Results

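The genes described here stood highest at embryonic day E14.5, between the migratory stage of the corneal precursors and the layered cornea. Of 19369 genes listed in any sample, 89 were chosen by their own expression values. Their mean level at E14.5 was at least 5 FPKM (fragments per kilobase of transcript, scaled to the mapped fragments of the sample) and at least 2 times both the E10.5 mean and the E16.5 mean, with a gene missing from a sample taken as 0. When E14.5 replicate 1 was left out, 75 of the 89 genes still met these conditions and 14 did not, while 36 other genes then met them, 111 in all. The choice therefore rests on the comparisons of E14.5 with E10.5 and with E16.5, and ratios to those stages are given as a description with no test.

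RNA-Seq was performed on wild-type C57BL/6 mouse embryos, with 3 samples at each of 3 stages and no treatment or transgene. Each E10.5 sample was periocular neural crest (pNC) pooled from 26 eyes, freed of ectoderm, lens vesicle and optic cup after dispase. Each E14.5 sample held 18 pooled corneas cut from the surrounding mesenchyme, and each E16.5 sample 12 pooled corneas cut at the limbus. A sample therefore mixes several embryos and all cells of the dissected tissue, in which fewer cells of a type and less RNA per cell cannot be told apart, and the replicates measure the spread between such pools.

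The libraries held 8745161 to 9069023 expected counts, and the lowest mean count at E14.5 of a protein-coding gene described here was 17.6. The tissue labels were checked against marker genes. Summed over 10 corneal stroma markers, the level was 227 to 358 FPKM in the pNC, 3417 to 7591 FPKM in E14.5 corneas and 12709 to 16256 FPKM in E16.5 corneas. For 10 corneal epithelium markers these ranges were 32 to 44.5, 740 to 2372 and 5648 to 8143 FPKM. E14.5 replicate 1 stood apart from replicates 2 and 3. Its epithelial marker sum was 2372 FPKM against 740 and 869, its stromal sum 7591 against 3417 and 5243, and its embryonic globins summed to 145 FPKM against 641 and 645. Embryonic globins lay between 3887 and 6113 FPKM at E10.5 and between 3.6 and 7.4 FPKM at E16.5, so replicate 1 was the E14.5 sample nearest to E16.5 in these sums. Each result below that turns on this sample is given with and without it.

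In the mouse, neural crest cells migrate around the optic cup, enter the space beneath the surface ectoderm and form the corneal stroma and endothelium, while the ectoderm forms the epithelium. Wnt and transforming growth factor-beta (TGF-beta) family signals, with their secreted antagonists, pattern this tissue. Blood cells made in the fetal liver, among them granulocytes and macrophages, reach embryonic tissues through the circulation during the same days. Neutrophils form their granules in a fixed order, the primary granules with myeloperoxidase and serine proteases first and the secondary and tertiary granules with lactoferrin and lipocalin later.

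The 89 genes comprised 79 protein-coding genes, 7 microRNA genes, 2 small nucleolar RNA genes and 1 long non-coding RNA. Their E14.5 means ran from 5.09 to 225 FPKM with a median of 12.1 FPKM, and the ratio of the E14.5 mean to the larger of the other means had a median of 2.73, with means under 1 FPKM raised to 1. That ratio was at least 5 for 18 genes and under 2.5 for 37 genes. At E10.5 the mean was under 1 FPKM for 24 of the 89 genes, and 5 were not listed in any E10.5 sample. In 72 of the 89 genes every E14.5 sample lay above all 6 other samples. The rule used these values. Among all 10084 genes with an E14.5 mean of at least 5 FPKM, 6.66% did so.

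**Figure D1:**
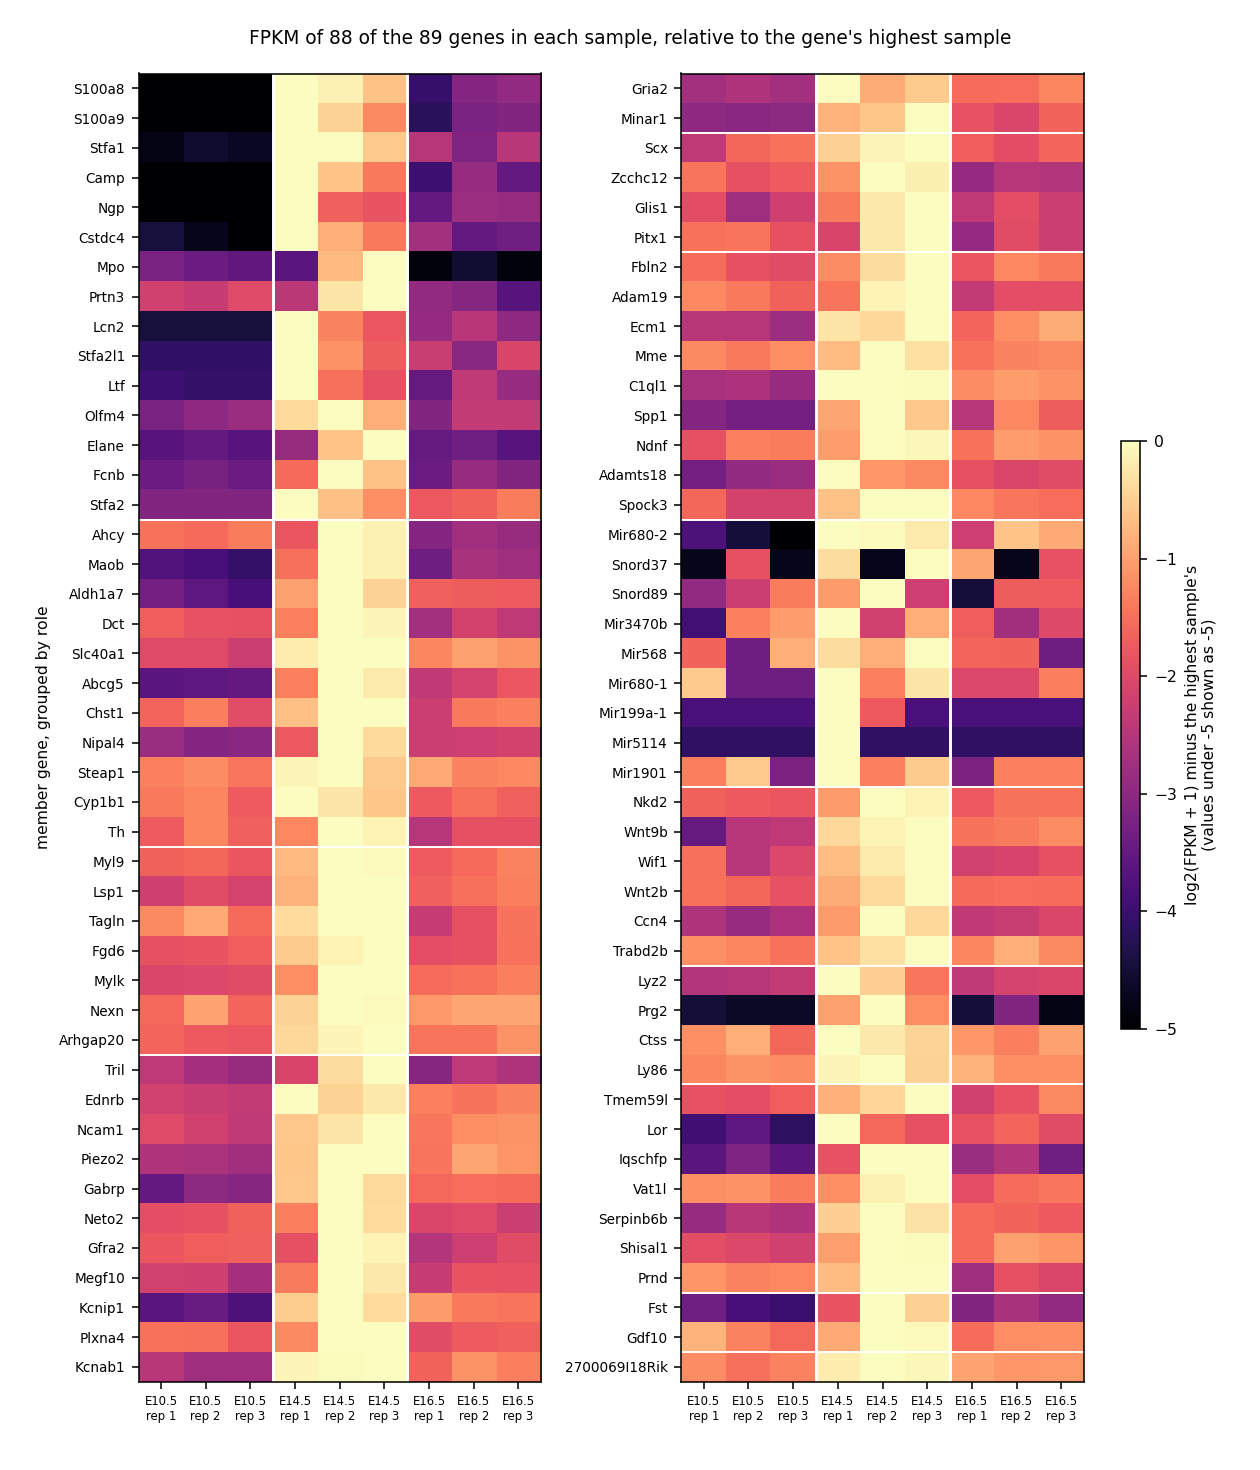
Each row is one of 88 of the 89 genes and each column a sample, with colour giving log2(FPKM + 1) minus that of the gene's highest sample. Most rows are brightest in the 3 E14.5 columns, and E14.5 replicate 1 is darker than replicates 2 and 3 in most rows. Most granule and stefin genes, at the top left, are near 0 FPKM at E10.5. Prtn3, Mpo and Stfa1 have E10.5 means of 3.56, 1.80 and 1.51 FPKM.

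By the roles assigned to them, 15 of the 89 genes encode neutrophil granule proteins and stefins and 4 belong to other leukocytes. A further 6 act in or respond to Wnt signaling, 2 belong to the TGF-beta superfamily or bind its ligands, 7 are contractile or cytoskeletal, and 5 are transcriptional regulators. Receptors, channels and adhesion molecules numbered 13, enzymes and transporters 11, and matrix and other extracellular proteins 9. The remaining genes were 7 other protein-coding genes, 9 small RNA genes and the long non-coding RNA.

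The role group with the largest median ratio of the E14.5 mean to the larger of the other means was that of the granule and stefin genes, at 6.21. S100a8 and S100a9 encode the subunits of calprotectin, a calcium- and zinc-binding protein abundant in neutrophils. S100a8 was at 0.31, 0.30 and 0 FPKM at E10.5, at 114.84, 105.53 and 73.37 FPKM at E14.5, and at 6.01, 12.51 and 14.01 FPKM at E16.5. S100a9 was at 0, 0.96 and 0.25 FPKM at E10.5, at 135.64, 98.95 and 57.55 FPKM at E14.5, and at 6.48, 13.80 and 14.47 FPKM at E16.5. For both genes every E14.5 sample lay far above the other 6, and the E14.5 mean was 9.03 times the E16.5 mean for S100a8 and 8.41 times for S100a9.

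Genes of the later granules followed the same order of stages. Camp, the cathelicidin precursor, was at 39.68, 25.42 and 14.49 FPKM at E14.5 against at most 0.20 FPKM at E10.5 and 1.60 to 4.55 FPKM at E16.5. Ngp, neutrophilic granule protein, was at 43.11, 12.85 and 11.50 FPKM at E14.5 and at 2.86, 5.28 and 4.96 FPKM at E16.5. Both were highest in E14.5 replicate 1, as were Ltf and Lcn2. Ltf, lactoferrin, had 15.71, 4.92 and 3.58 FPKM at E14.5, and without replicate 1 its mean fell under the minimum of 5 FPKM. Lcn2, the siderophore-binding lipocalin, was not listed at E10.5 and was at 20.74, 7.94 and 5.26 FPKM at E14.5 and 1.93, 3 and 1.76 FPKM at E16.5. Against a floor of 3 counts per library, the E14.5 level of Lcn2 was at least 27.6-fold higher than that at E10.5, and at least 16.2-fold higher without replicate 1.

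Genes of the primary granules had another pattern among the E14.5 samples. Mpo, myeloperoxidase, was at 1.37 FPKM in replicate 1, at 28.14 FPKM in replicate 3 and at a mean of 22.3 FPKM over replicates 2 and 3, against 2.16, 1.75 and 1.5 FPKM at E10.5 and 0, 0.26 and 0 FPKM at E16.5. Prtn3, proteinase 3, was at 2.73, 15.94 and 19.20 FPKM at E14.5, and Elane, neutrophil elastase, at 0.76, 7.34 and 11.72 FPKM. In replicate 1, Mpo and Prtn3 were therefore below every E10.5 sample, and only replicates 2 and 3 carried their peak. Fcnb, ficolin B, had a smaller difference of the same direction, at 2.62, 9.59 and 5.80 FPKM. Olfm4, olfactomedin 4 of a subset of neutrophils, was not placed here in either granule group. At 6.65, 8.99 and 4.60 FPKM, it was neither highest nor lowest in replicate 1.

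Over the 15 granule and stefin genes, the level in E14.5 replicate 1 divided by the mean of replicates 2 and 3 ran from 0.0614 for Mpo to 3.70 for Ltf, with a median of 1.73. It was at least 2 for 6 genes and at most 0.5 for 4 genes, namely Mpo, Elane, Prtn3 and Fcnb. Leaving out replicate 1 could only raise the E14.5 means of these 4, so that they then stayed in the set was fixed in advance. Mpo and Prtn3 met the rule whichever of the 9 samples was left out, but Elane and Fcnb did not. Of the granule and stefin genes, only Ltf and Stfa2 left the set without replicate 1. Among the neutrophil marker genes below 5 FPKM, Ctsg and Ms4a3, which also belong to early granulocytes, were at 0.35, 1.62 and 2.73 FPKM and at 0.23, 2.29 and 3.16 FPKM at E14.5. The other markers below 5 FPKM, Mmp8, Mmp9, Chil3, Cebpe, Cd177 and Itgb2l, are not given, so no pattern is drawn from this pair.

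Of 20 neutrophil granule markers, 10 are among the 89 genes and 12 reached a mean of 5 FPKM at any stage. The other 2 of these 12 were Stfa3 and Anxa1, of which Anxa1 is also an epithelial gene, and both were at their highest at E16.5. The summed FPKM of the 20 markers was 7.1 to 7.8 at E10.5, 527, 381 and 296 in E14.5 replicates 1, 2 and 3, and 278 to 346 at E16.5. Anxa1 alone made up 216 to 302 FPKM of the E16.5 sum. The mean sum at E14.5 was 401 ± 116 FPKM (SD, n = 3) and 339 FPKM without replicate 1.

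**Figure D2:**
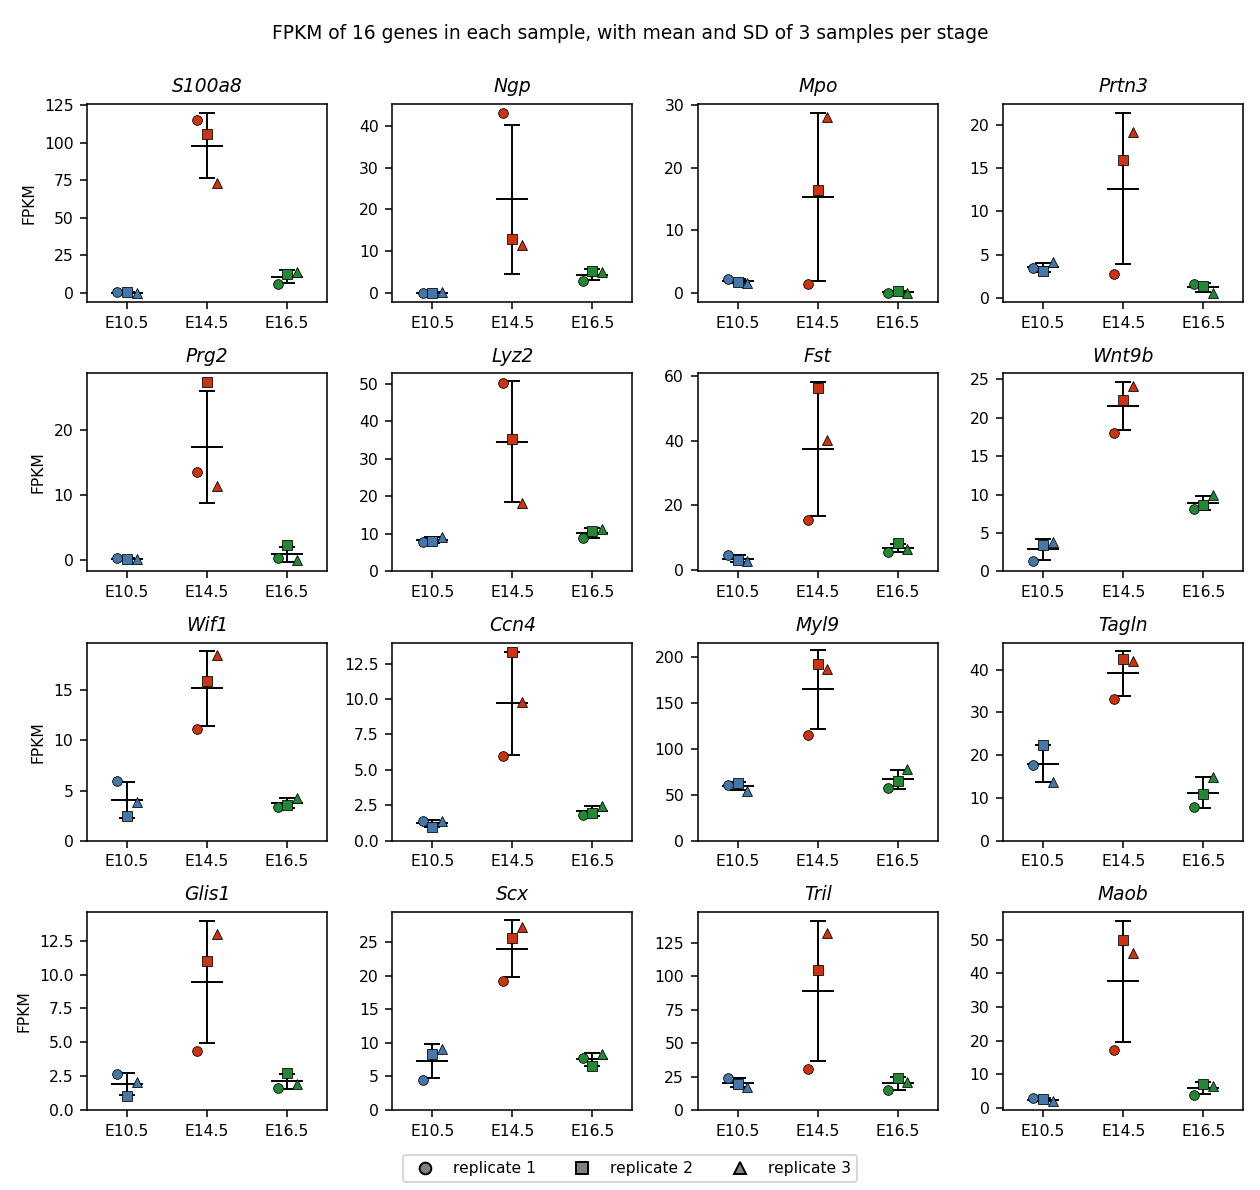
FPKM (vertical axes, each with its own range) of 16 genes at the 3 stages, with a marker for each replicate and a bar for the mean ± SD of 3 samples. Ngp and S100a8 are highest in E14.5 replicate 1, whereas Mpo and Prtn3 in that sample are no higher than at E10.5, and the Wnt, contractile and transcription factor genes are lowest in it among the E14.5 samples.

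The stefins are inhibitors of cysteine proteases, and their mouse genes form a tandem cluster on chromosome 16. Stfa2l1 (36156811 to 36161948, GRCm38.p6), Cstdc4, Stfa1 and Stfa2 of this region were among the 89 genes. Between Cstdc4 and Stfa1 lay 2 other listed genes, and 2 more between Stfa1 and Stfa2, none of them among the 89. Stfa3 was not among the 89 genes either and was highest at E16.5. Stfa1 was at 1.30, 1.70 and 1.52 FPKM at E10.5, at 63.07, 63.88 and 43.36 FPKM at E14.5 and at 10.45, 6.31 and 10.65 FPKM at E16.5. Cstdc4 was at 33.36, 18.04 and 12.07 FPKM at E14.5, Stfa2l1 at 16.38, 6.86 and 4.31 FPKM, and Stfa2 at 7.80, 4.56 and 2.91 FPKM. All 4 had the same order of stages, but these copies are similar in sequence, so the division of reads among them is uncertain. Against the floor of 3 counts per library, Stfa2l1 was at least 10.3-fold and Stfa2 at least 5.88-fold higher at E14.5 than at E10.5, where neither was listed. Without replicate 1 these bounds were 6.33-fold and 4.33-fold.

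Other members also lay side by side in the genome. Prtn3 (chromosome 10, 79879667 to 79883174) and Elane (79886312 to 79888216) are separated by 3138 bases. S100a8 and S100a9 lie 22596 bases apart on chromosome 3 with no other listed gene between them. Gabrp and Kcnip1 are neighbors on chromosome 11, as are Adam19 and Nipal4, which are 808 bases apart. Chromosome 3 held 13 of the 89 genes, or 14.6%, and 4.89% of the genes with an E14.5 mean of at least 5 FPKM.

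The promoters of the granule genes and other members were searched for short motifs. RefSeq windows from 250 bases before to 50 bases after the start site (GRCm38.p6) were found for 59 of the 89 genes. GAGGAA, the core recognized by the myeloid factor PU.1 and other ETS proteins, was present on either strand in 26 of the 59 (44.1%), in 31.3% of all 27025 genes with a window and in 29.6% of the 8062 with an E14.5 mean of at least 5 FPKM. By role, it was found in 5 of 8 receptors, channels and adhesion molecules, 3 of 6 other protein-coding genes and 3 of 7 matrix genes. It was in 2 of 9 enzymes and transporters and 0 of 4 contractile genes. The similar copies Stfa1, Stfa2, Stfa2l1 and Cstdc4 all held it, as part of 11 of the 15 granule and stefin genes. The windows of 3 of these genes, in which the match lies within 110 bases upstream of the start and clear of annotated exons, are shown 5′ to 3′ on the gene's strand, with 25 bases on each side and the match in capitals. In the stefin genes the match is on the opposite strand and appears as TTCCTC.
Prtn3: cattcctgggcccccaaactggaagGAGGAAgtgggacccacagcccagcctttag
Stfa2l1: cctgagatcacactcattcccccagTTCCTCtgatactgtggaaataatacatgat
Cstdc4: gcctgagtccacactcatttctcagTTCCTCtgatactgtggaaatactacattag
These stretches lie at chr10:79879547-79879602, chr16:36156700-36156755 and chr16:36184107-36184162, all on the plus strand. Compared base by base with no gap allowed, the Stfa2l1 and Cstdc4 stretches share 36 of 56 bases (64.3%). Upstream of the match their similar runs are shifted against each other, so this share understates their likeness. The match begins 86 and 80 bases before the start sites of Stfa2l1 and Cstdc4 and 95 bases before that of Prtn3.

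The other motifs were counted in the same windows. TATAAA was found in 10 of the 59 genes (16.9%) and in 15.7% of all genes with a window, but in 7.91% of those with an E14.5 mean of at least 5 FPKM. For the remaining motifs, the shares in the 59 genes against all genes were 47.5% and 41.1% for CCAAT, 45.8% and 34.0% for CCACCC, 15.3% and 18.3% for CAGCTG, and 11.9% and 15.9% for CATGTG. They were 8.47% and 12.7% for AGATAA, 8.47% and 5.95% for TGACTCA, 6.78% and 8.09% for CACGTG and 3.39% and 2.03% for TGACGTCA. Both strands were searched for each motif separately, and a window with several matches was counted once. These counts describe letters in a window and were not tested.

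Among the other leukocyte genes, Prg2 had the largest ratio to both other stages of all 89 genes, 17.4, when means under 1 FPKM were raised to 1. Prg2, the major basic protein of eosinophil granules, was at 13.57, 27.32 and 11.41 FPKM at E14.5, at 0.14 to 0.27 FPKM at E10.5 and at 0.28, 2.22 and 0 FPKM at E16.5. The eosinophil genes Epx, Ear1 and Ear2 were also highest at E14.5, at means of 1.16, 2.47 and 2.52 FPKM, under the minimum. The mast cell genes of the same marker list did not peak. Cma1, a chymase, was at 43.60, 8.20 and 8.19 FPKM at E14.5 and at 43.12 to 55.48 FPKM at E16.5, and Cpa3 and Tpsb2 had the same order.

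Lyz2, lysozyme of macrophages and granulocytes, was at 50.29, 35.35 and 18.13 FPKM at E14.5, 7.88 to 9.18 FPKM at E10.5 and 8.76 to 11.22 FPKM at E16.5. Ctss, the lysosomal protease cathepsin S, was at 10.57, 8.86 and 7.58 FPKM at E14.5, and Ly86, the partner of a Toll-like receptor homolog, at 7.71, 8.26 and 5.73 FPKM. Ctss and Ly86 lost their place without replicate 1. Of 29 macrophage markers, 15 reached a mean of 5 FPKM, 13 of these were highest at E14.5, and 9 had every E14.5 sample above the other samples, but 2 (Lyz2 and Ctss) met the 2-fold condition. The summed level of the 29 markers was 140 to 166 FPKM at E10.5, 207 to 311 FPKM at E14.5 and 154 to 167 FPKM at E16.5.

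Leukocyte and red cell markers also moved between the E14.5 samples. In replicates 1, 2 and 3, summed erythroid markers other than embryonic globins were at 5121, 2259 and 2901 FPKM, vascular endothelial markers at 113, 170 and 182 FPKM, and macrophage markers at 311, 233 and 207 FPKM. None of the 18 vascular, 26 erythroid or 12 platelet markers was among the 89 genes. Vascular markers were highest at E10.5, at 263 to 417 FPKM. Their part in the levels of the granule genes was not tested.

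Secreted regulators of signaling formed the next group. Fst encodes follistatin, which binds activin and neutralizes it. It was at 4.66, 2.97 and 2.57 FPKM at E10.5, at 15.31, 56.51 and 40.38 FPKM at E14.5, and at 5.58, 8.23 and 6.46 FPKM at E16.5. All 3 E14.5 samples lay above the other 6, replicate 1 by the smallest margin. Gdf10, a TGF-beta superfamily ligand also named BMP3b, was at 3.87, 8.03 and 7.70 FPKM at E14.5 and at 4.25, 2.69 and 2.03 FPKM at E10.5, so that replicate 1 overlapped the E10.5 samples. Of 49 TGF-beta and BMP pathway genes, 32 reached 5 FPKM, 8 of these were highest at E14.5, and Fst and Gdf10 alone met the rule. Without replicate 1, Tgfb2 met it too. This ligand was at 8.76, 40.37 and 40.03 FPKM at E14.5, with means of 17.8 FPKM at E10.5 and 10.1 FPKM at E16.5.

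Both a Wnt ligand and Wnt antagonists peaked. Wnt9b, a ligand made by surface epithelia, was at 1.27, 3.48 and 3.81 FPKM at E10.5, at 18.02, 22.37 and 24.09 FPKM at E14.5, and at 8.16, 8.6 and 9.92 FPKM at E16.5. Wnt2b, another ligand, was at 8.18, 11.85 and 15.71 FPKM at E14.5 against 3.63 to 5.05 FPKM in the other 6 samples. Wif1, a secreted protein that binds Wnt ligands, was at 11.19, 15.91 and 18.54 FPKM at E14.5 and at 2.41 to 5.96 FPKM in the other 6. For each of these genes the E14.5 samples lay above the other 6, with replicate 1 lowest and replicate 3 highest, while E10.5 and E16.5 overlapped for Wnt2b and Wif1. Wnt9b overlaps the gene Wnt3, whose means over the stages, from the earliest, were 1.35, 9.85 and 13.6 FPKM, and Wnt2b overlaps St7l, at 4.41, 5.32 and 5.28 FPKM. Reads of these pairs could be shared, since the counting is not stated to use strand.

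Intracellular and target genes of the pathway had the same shape. Nkd2, an inhibitor that binds Dishevelled, was at 17.36, 36.64 and 33.76 FPKM at E14.5, at 9.76 to 10.96 FPKM at E10.5 and at 10.11 to 12.66 FPKM at E16.5. Ccn4, a matricellular protein induced by Wnt1 and also called Wisp1, was at 5.96, 13.30 and 9.77 FPKM at E14.5, against 0.94 to 2.45 FPKM in the other samples. Trabd2b, a membrane metalloprotease that cleaves Wnt proteins, was near the minimum, at 3.84, 5.04 and 6.40 FPKM. All 6 Wnt genes were lowest in replicate 1 among the E14.5 samples, the ratio of replicate 1 to the mean of the others being 0.493 to 0.776. Leaving it out could only raise their E14.5 means, so that all 6 then stayed in the set was fixed in advance.

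Most Wnt genes did not have this pattern. Of 57 ligands, receptors, modulators and targets, 43 reached a mean of 5 FPKM at some stage and 15 of these were highest at E14.5, 9 of them with every E14.5 sample above the other 6. Wnt2 came close to the set, at 34.91, 42.06 and 40.13 FPKM at E14.5 and 17.89 to 21.44 FPKM at E16.5, a ratio of 1.98. It met the rule without replicate 1, with means of 41.1 FPKM at E14.5 and 19.7 FPKM at E16.5. The list as a whole did not peak, since its summed level was 469 to 537 FPKM in the pNC, 1228 to 1324 FPKM in the E14.5 corneas and 1369 to 1390 FPKM in the E16.5 corneas.

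The members given a contractile or cytoskeletal role numbered 7, and the rule chose each of them for its E14.5 level. Myl9, the regulatory light chain of non-muscle and smooth muscle myosin, was at 60.24, 63.08 and 54.21 FPKM at E10.5, at 114.68, 192.22 and 186.22 FPKM at E14.5, and at 57.01, 64.47 and 77.83 FPKM at E16.5. Mylk, the kinase that phosphorylates this light chain, was at 7.88, 18.81 and 18.60 FPKM at E14.5 and at 3.78 to 6.80 FPKM in the other samples. Tagln, the actin-binding protein SM22, was at 33.08, 42.49 and 41.95 FPKM at E14.5, 13.81 to 22.39 FPKM at E10.5 and 7.85 to 14.95 FPKM at E16.5. In each of these genes the lowest E14.5 value, that of replicate 1, was still above every value of the other stages.

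The other contractile and cytoskeletal members were Lsp1, an F-actin-binding protein of leukocytes and other cells, Fgd6 and Arhgap20, regulators of small GTPases, and Nexn, an actin filament protein. Lsp1 was at 37.40, 64.87 and 65.53 FPKM at E14.5 and at 13.52 to 25.16 FPKM in the other samples. Fgd6 was at 12.92, 17.76 and 19.30 FPKM at E14.5, against 4.43 to 6.27 FPKM. Ratios of replicate 1 to the mean of replicates 2 and 3 were 0.421 to 0.784 over the 7 genes. Of 11 smooth muscle and pericyte markers, Tagln was the one among the 89 genes. The sum of the list was 49.6 to 72.7 FPKM at E10.5, 86.9 to 92.2 FPKM at E14.5 and 154 to 217 FPKM at E16.5, where Ndufa4l2 alone was at 85.89 to 145.46 FPKM. Acta2, smooth muscle actin, was at 10.42 to 11.75 FPKM at E14.5 and 4.69 to 8.01 FPKM in the other samples, whereas Cnn1 and Myh11 stayed under 1 FPKM in all 9 samples.

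Among the transcriptional regulators, Pitx1, a homeodomain protein, was at 2.09, 10.24 and 12.06 FPKM at E14.5, with replicate 1 below the E10.5 samples at 2.54 to 3.82 FPKM. Of 75 Sox, Fox, homeobox and bHLH genes, 47 reached 5 FPKM and 10 of these were highest at E14.5.

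Scx encodes scleraxis, a bHLH factor of tendon and ligament precursors. It was at 19.18, 25.61 and 27.25 FPKM at E14.5 and at 4.38 to 9.12 FPKM in the other samples. Scx overlaps the gene Bop1, which was highest at E10.5, and the counting is not stated to use strand, so reads of the pair could be shared. Glis1, a zinc finger protein, was at 4.38, 11.03 and 12.99 FPKM at E14.5 and at 1.02 to 2.72 FPKM elsewhere. Zcchc12, a coactivator in BMP signaling, was at 8.22, 19.12 and 17.17 FPKM at E14.5, and 2.24 FPKM on average at E16.5.

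Matrix and extracellular proteins with the highest levels were Fbln2, Adam19 and Ecm1. Fbln2, the basement membrane protein fibulin 2, was at 43.60, 79.76 and 101.44 FPKM at E14.5 and at 25.42 to 42.38 FPKM in the other samples, a narrow gap for replicate 1. Adam19, a membrane metalloprotease, was at 17.67, 45.58 and 49.17 FPKM at E14.5 and 14.99 to 20.11 FPKM at E10.5, so replicate 1 overlapped E10.5. Ecm1, a secreted glycoprotein, was even across the E14.5 samples at 28.17, 25.62 and 33.96 FPKM, against 10.45 to 18.21 FPKM at E16.5. C1ql1, a secreted C1q-domain protein, was the most even of all, at 18.79, 19.00 and 18.73 FPKM at E14.5, 1.73 to 2.30 FPKM at E10.5 and 7.73 to 8.83 FPKM at E16.5.

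Spp1, the secreted phosphoprotein osteopontin, was at 12.02, 23.93 and 15.81 FPKM at E14.5 and at 3.40, 9.52 and 6.58 FPKM at E16.5. Adamts18, a secreted protease, was the only matrix gene with its highest value in replicate 1, at 17.97, 8 and 7.09 FPKM, and it lost its place without that sample because the E16.5 mean was 3.86 FPKM. Mme, the cell surface peptidase neprilysin, Ndnf and Spock3 made up the rest, with E14.5 means of 22.98 ± 5.69, 12.42 ± 4.63 and 9.96 ± 2.55 FPKM (SD, n = 3). None of 43 collagen genes met the rule, and the summed collagen level was 901 to 1341 FPKM in the pNC, 4181 to 6605 FPKM in E14.5 corneas and 13092 to 18263 FPKM in E16.5 corneas.

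Among receptors and adhesion molecules, Tril had the highest level. Tril, a membrane component of Toll-like receptor complexes that is expressed in the neural tube and crest, was at 30.79, 104.52 and 132.65 FPKM at E14.5, at 17.47 to 24.05 FPKM at E10.5 and at 14.80 to 24.07 FPKM at E16.5. Ednrb, the endothelin receptor of neural crest and melanoblasts, was at 37.81, 27.30 and 32.17 FPKM at E14.5 and 13.22 to 14.91 FPKM at E16.5. Ncam1, the neural cell adhesion molecule, was at 25.51, 31.91 and 38.37 FPKM, and Piezo2, a mechanically gated channel, at 21.26, 32.50 and 32.41 FPKM. The E14.5 samples lay above the other 6 for these 4 genes, but Ncam1 and Piezo2 stood at 2.03 and 2.02 times their E16.5 means.

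Gabrp, a GABA-A receptor subunit of epithelia, was at 15.80, 23.88 and 18.21 FPKM at E14.5 against 7.36 to 7.73 FPKM at E16.5. Several other members are best known from neurons. Kcnip1, a calcium-binding partner of potassium channels whose gene is the neighbor of Gabrp, was at 9.59, 14.19 and 10.81 FPKM at E14.5. Kcnab1, a potassium channel beta subunit, was at 7.36, 7.71 and 7.86 FPKM. Neto2, an auxiliary subunit of kainate receptors, was at 9.86, 26.49 and 20.51 FPKM, Plxna4, a semaphorin coreceptor, at 4.51, 11.78 and 11.71 FPKM, and Gfra2, a receptor for neurturin, at 4.27, 18.41 and 17.11 FPKM. Gfra2 in replicate 1 was below all E10.5 samples, which lay at 4.55 to 5.09 FPKM. None of the 16 neuron markers met the rule, and their sum was 243 to 351 FPKM at E10.5 and 36.6 to 55.1 FPKM at E14.5. Megf10, Gria2 and Minar1 completed the group, of which Gria2, an AMPA receptor subunit, was highest in replicate 1 at 8.64 FPKM and left the set without it.

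The enzyme with the highest level of all 89 genes was Ahcy, which hydrolyzes S-adenosylhomocysteine in the methionine cycle. It was at 110.06, 103.72 and 119.24 FPKM at E10.5, at 86.76, 308.00 and 280.34 FPKM at E14.5, and at 35.38 to 44.84 FPKM at E16.5. Replicate 1 lay below every E10.5 sample, so the peak of Ahcy rested on replicates 2 and 3. Maob, the mitochondrial monoamine oxidase B, was at 17.07, 49.97 and 45.98 FPKM at E14.5, 2.05 to 2.79 FPKM at E10.5 and 3.91 to 7.17 FPKM at E16.5. Aldh1a7, an aldehyde dehydrogenase closely related to Aldh1a1, was at 19.12, 39.09 and 28.28 FPKM at E14.5 and at 11.05 to 11.52 FPKM at E16.5.

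Dct, dopachrome tautomerase of pigment cells, was at 10.35, 27.17 and 25.65 FPKM at E14.5, at 6.76 to 7.76 FPKM at E10.5 and at 3.26 to 5.36 FPKM at E16.5. Of the 12 pigment cell markers, 6 reached a mean of 5 FPKM at some stage and 4 of these were highest at E14.5, but Dct was the one that met the rule. Tyr was at 15.94 to 22.76 FPKM at E14.5 and 14.86 to 19.42 FPKM at E10.5, and Pmel, at 20.63, 27.55 and 54.11 FPKM at E14.5, overlapped its E10.5 values of 19.33 to 27.35 FPKM. The sum of the 12 markers was highest at E14.5, being 92.2 to 101 FPKM at E10.5, 104, 117 and 180 FPKM in E14.5 replicates 1, 2 and 3, and 61.9 to 69.1 FPKM at E16.5.

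Slc40a1, the iron exporter ferroportin, was even among the E14.5 samples at 10.87, 12.47 and 12.59 FPKM, against 4.68 to 6.00 FPKM at E16.5. Abcg5, a subunit of a sterol transporter, was at 5.33, 14.89 and 12.85 FPKM at E14.5 and at 0.29 to 0.40 FPKM at E10.5. Cyp1b1, a cytochrome P450 whose loss in humans causes congenital glaucoma, was at 6.48, 5.27 and 3.98 FPKM at E14.5 and 1.22 to 2.13 FPKM in the other samples, and it fell under the minimum without replicate 1. Chst1, Nipal4, Steap1 and Th had E14.5 means of 10.4, 7.58, 7.09 and 5.21 FPKM.

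The remaining protein-coding genes had E14.5 means of 5.6 to 18 FPKM. Lor, the cornified envelope protein loricrin, owed its place to replicate 1, with 19.03, 5.71 and 4.44 FPKM at E14.5 and 4.15 to 5.56 FPKM at E16.5. Iqschfp is a read-through of Iqcj and Schip1, so its 2.39, 11.14 and 11.16 FPKM at E14.5 share sequence with those genes. Prnd, the prion-like protein doppel, was at 3.68, 6.58 and 6.54 FPKM at E14.5 and 0.11 to 1.04 FPKM at E16.5. Serpinb6b, a serine protease inhibitor, was at 5.75, 8.52 and 6.82 FPKM, and Tmem59l, Vat1l and Shisal1 are genes of less known function. The long non-coding RNA 2700069I18Rik was at 20.64, 23.54 and 22.36 FPKM at E14.5 and 10.57 to 11.71 FPKM at E16.5, among the ratios nearest to 2.

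The 9 small RNA genes rest on few reads. The libraries were purified with oligo-dT beads, and apart from Mir680-2 none of these genes had more than 11.2 counts in any sample. Mir680-2 was at 53.41, 51.29 and 46.17 FPKM at E14.5, at 0 to 2.96 FPKM at E10.5 and at 10.65, 34.62 and 28.47 FPKM at E16.5, and it lost its place without replicate 1. Mir680-1 on chromosome 6 was at 9.28, 3.15 and 7.55 FPKM at E14.5. The reference gives both loci, of which Mir680-2 lies on chromosome X, the same mature product, shown here with its seed (bases 2 to 8) in capitals, so reads of the loci may not be separable.
mmu-miR-680: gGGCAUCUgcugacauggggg
Mir5114, which lies in Scd2, was listed in replicate 1 alone, at 16.57 FPKM, and Mir199a-1, within Dnm2, at 13.39 and 3.29 FPKM in replicates 1 and 2. Snord37 lies in Eef2 and was at 20.39, 0 and 25.93 FPKM. Snord89, Mir3470b, Mir568 and Mir1901 likewise had overlapping stages or single reads, and no direction is drawn from these genes.

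**Figure D3:**
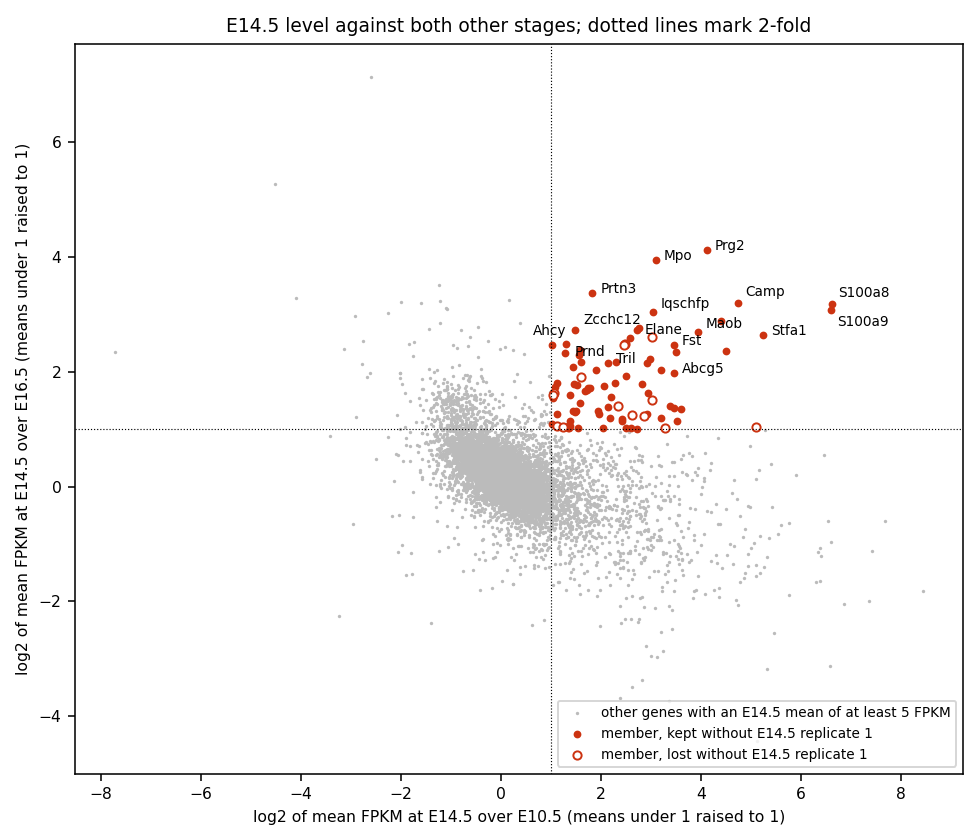
Each point is a gene with an E14.5 mean of at least 5 FPKM, placed by log2 of its E14.5 mean over the E10.5 mean (horizontal) and over the E16.5 mean (vertical), with means under 1 FPKM raised to 1. The 89 genes fill the corner beyond both dotted 2-fold lines, with Prg2 and Mpo highest on the vertical axis and S100a8 and S100a9 farthest right. Open circles are the 14 genes lost without E14.5 replicate 1.

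Many members lay near the limits of the rule. The 18 genes lost when FPKM were divided by trimmed mean of M-values (TMM) factors included Fbln2, Ncam1, Ecm1, Piezo2, Mme and Nexn. Nearest inside the 5 FPKM minimum were Stfa2, Trabd2b and Th, at 5.09, 5.09 and 5.21 FPKM, and just outside lay Cdh23 and Pglyrp1, at 4.92 and 4.84 FPKM, with an unnamed gene at 4.95 FPKM. Nearest inside the 2-fold limit were Piezo2, Ndnf and 2700069I18Rik, each 2.02 times the larger of the other means. Just outside were Ptx3, Wnt2 and Sh3gl3, at 1.995, 1.98 and 1.98 times. Without E14.5 replicate 1, Wnt2, Sh3gl3 and Cdh23 met the rule.

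The E14.5 samples differed among themselves in most of these genes. Replicate 1 was the lowest of the 3 in 57 of the 89 genes, and its ratio to the mean of replicates 2 and 3 had a median of 0.684, against 0.985 over all genes with an E14.5 mean of at least 5 FPKM. It was at most 0.5 in 28 genes, between 0.5 and 2 in 49 and at least 2 in 11, with 1 gene at 0 in both others. All 5 transcriptional regulators, all 7 contractile genes and all 6 Wnt genes were lowest in replicate 1, whereas 9 of the 15 granule and stefin genes were highest in it.

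**Figure D4:**
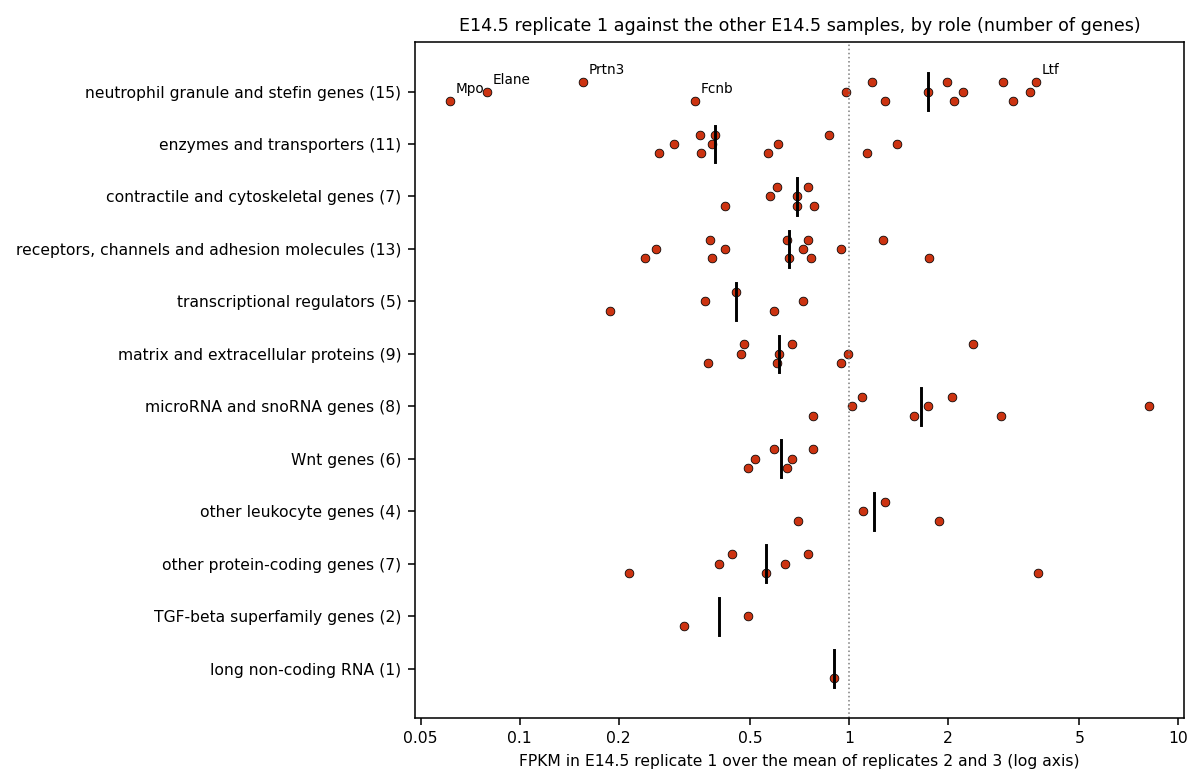
Each point is a gene placed by its FPKM in E14.5 replicate 1 over the mean of replicates 2 and 3 (log axis), in rows by role with a black bar at the median. The Wnt, contractile and regulator genes all lie left of 1, whereas the granule genes spread from 0.0614 (Mpo) to 3.70 (Ltf). Mir5114, at 0 in replicates 2 and 3, is not drawn.

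To see how far a peak chosen in some E14.5 samples held in another, the rule was applied with each E14.5 replicate left out in turn and the withheld sample was then read. Without replicate 1, 111 genes were chosen, and in replicate 1 95 of them (85.6%) lay above both other stage means but 38 (34.2%) were at least 2 times both. Without replicate 2, 82 genes were chosen and 65 (79.3%) were 2-fold in it. Without replicate 3, 85 were chosen and 61 (71.8%) were 2-fold. Over all genes with an E14.5 mean of at least 5 FPKM in the samples kept, 0.582%, 1.0% and 1.06% were 2-fold above both in replicates 1, 2 and 3. The E10.5 and E16.5 means are the same samples in the choice and in the check.

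In each E14.5 sample taken by itself, 21 genes met the rule in all 3. They were the granule and eosinophil genes S100a8, S100a9, Camp, Ngp, Lcn2 and Prg2, the stefins Stfa1 and Cstdc4, the signaling genes Fst, Wif1, Wnt9b and Ccn4, and Scx, Fgd6, C1ql1, Gabrp, Kcnab1, Maob, Slc40a1, Chst1 and Serpinb6b. When any of the 9 samples was left out and when FPKM were scaled in both other ways, 51 of the 89 genes met the rule each time. They included 11 of 15 granule and stefin genes, 5 of 6 Wnt genes, 5 of 7 contractile genes and 3 of 9 matrix genes.

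The genes gained without replicate 1 were led by Egr1, an immediate early transcription factor, at 6.24, 112.77 and 331.70 FPKM in E14.5 replicates 1, 2 and 3 and 69.75 to 90.73 FPKM at E16.5. Immediate early genes as a list of 32 summed to 194, 464 and 1329.5 FPKM in these samples. None of them was among the 89 genes. Next in level among the gained genes were Tfap2b, Ttyh3 and Fbn2, which are not on that list. Tfap2b was at 93.71, 170.98 and 186.14 FPKM in E14.5 replicates 1, 2 and 3, with a mean of 81.2 FPKM at E16.5.

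Whether the genes returned to their E10.5 level was the comparison that the rule did not use, since it bounds the E10.5 and E16.5 means but not their order. The pNC was freed of ectoderm, whereas the corneas include the epithelium. For genes of epithelia, such as Wnt9b and Gabrp, a higher level at E16.5 therefore cannot be told apart from this difference in tissue. With edgeR's quasi-likelihood test, 79 of the 89 genes passed the filter on low counts, and the call asked for an adjusted p (Benjamini-Hochberg) under 0.05 and a change of at least 2-fold. Of the 79, 33 were called higher and 4 lower in the E16.5 corneas than in the pNC. Among all 14771 genes tested, 19.4% were called higher and 15.4% lower. The 33 genes are 41.8% of those tested and the 4 genes 5.06%. The median log2 fold change of E16.5 over E10.5 was 0.85 for the 79 genes and 0.00 for all genes tested. The 10 genes that were not tested were Elane, Stfa2 and all small RNA genes but Mir680-2. Of the 79 genes, 8 passed the filter only through the E14.5 samples that chose them, namely the granule and stefin genes Camp, Cstdc4, Stfa2l1, Fcnb and Olfm4, and Prg2, Iqschfp and Mir680-2. With only E10.5 and E16.5 in the model, 29 of 71 members (40.8%) were called higher and 5 lower, against 19.3% and 15.7% of all 14477 genes then tested.

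**Figure D5:**
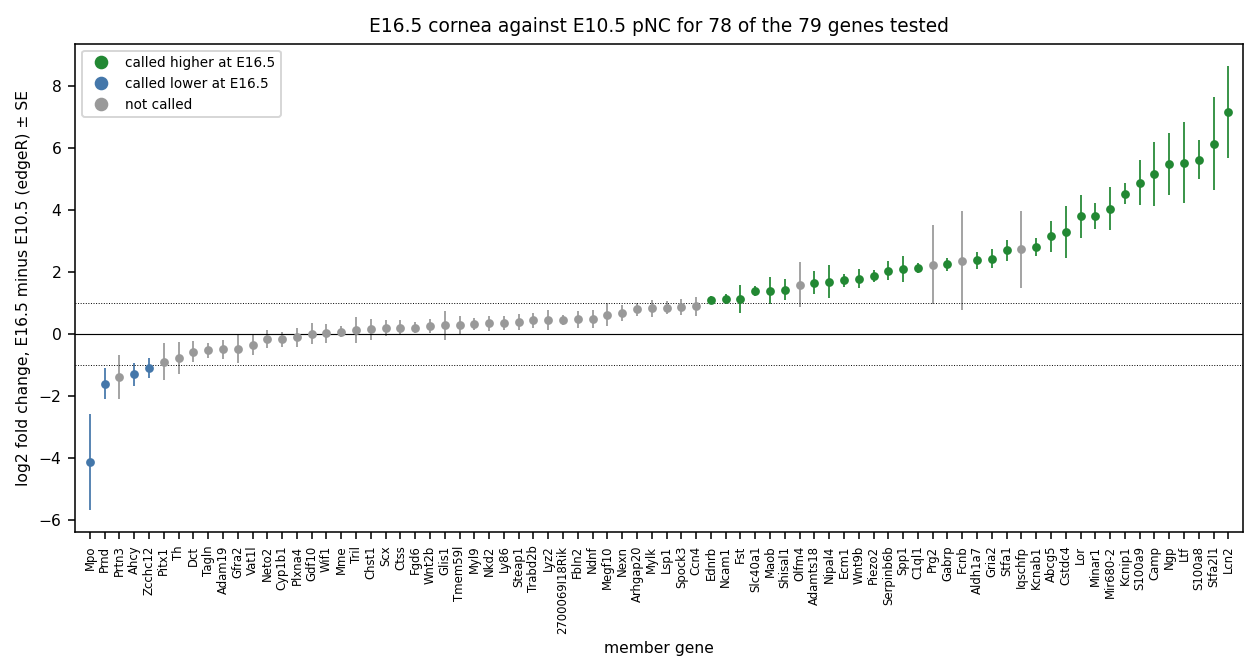
Log2 fold change of E16.5 cornea over E10.5 pNC with its standard error for 78 of the 79 genes tested, in rising order. Green genes were called higher (32 of them drawn) and blue genes lower (4) at E16.5, and dotted lines mark 2-fold. Values of genes with few or no counts at E10.5, such as Lcn2, have no fixed size.

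Of the 13 granule and stefin genes tested, 9 were called above their E10.5 level at E16.5, and 6 of the 8 that could be tested with only E10.5 and E16.5 in the model. S100a8 was higher by 5.62 ± 0.63 (log2, SE; adjusted p = 1.6e-05), S100a9 by 4.88 ± 0.73 (adjusted p = 0.00012) and Stfa1 by 2.70 ± 0.33 (adjusted p = 2.8e-05). S100a8 had 2 counts over the 3 E10.5 libraries and 104 over those of E16.5, a ratio of 52.8 after scaling to library totals (exact 95% interval 14.2 to 441, for counting error only). Camp, Ngp, Ltf, Lcn2, Stfa2l1 and Cstdc4 were also called, but each had 3 or fewer counts over the E10.5 libraries, so their fold changes have no fixed size. Camp, Cstdc4 and Stfa2l1 were tested only because their E14.5 counts passed the filter. At the floor of 3 counts per library, Lcn2 was at least 5.44-fold and Stfa2l1 at least 2.55-fold above E10.5 at E16.5. Mpo went the other way, lower by a log2 fold change of -4.13 ± 1.54 (adjusted p = 0.033). The call of Mpo was lost when any of 5 of the 6 E10.5 and E16.5 samples was left out, all but E16.5 replicate 2, with adjusted p of 0.054 to 0.091, and its adjusted p was 0.00012 without E14.5 replicate 1, which enters the common estimate of spread. Prtn3 was not called, at -1.39 ± 0.72 (adjusted p = 0.11), but was called lower with only E10.5 and E16.5 in the model, at -1.39 (adjusted p = 0.0040).

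Of the 13 receptors, channels and adhesion molecules, 8 were called higher. Kcnip1 was higher by 4.52 ± 0.33 (log2, SE; adjusted p = 8.5e-07), Minar1 by 3.81 ± 0.42, Kcnab1 by 2.79 ± 0.29, Gria2 by 2.43 ± 0.32, Gabrp by 2.25 ± 0.21 and Piezo2 by 1.86 ± 0.19. Ncam1 and Ednrb were near the 2-fold limit at 1.13 ± 0.17 and 1.10 ± 0.11, and both fell short of it on library totals in place of TMM. Tril was not called, at 0.13 ± 0.42 (adjusted p = 0.80), and neither were Neto2, Gfra2, Plxna4 and Megf10.

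Signaling and contractile genes were mostly not called. Wnt9b was higher at E16.5 by 1.79 ± 0.29 (log2, SE; adjusted p = 0.00024), and the other 5 Wnt genes had changes of 0.03 to 0.90, with Wif1 at 0.03 ± 0.31 (adjusted p = 0.94). Fst was called higher at 1.14 ± 0.45 (adjusted p = 0.044), and lost this call without E10.5 replicate 2 or 3 or E16.5 replicate 2 or 3, with adjusted p of 0.071 to 0.13, and on library totals, at 0.99. None of the 7 contractile genes was called, their changes running from -0.53 for Tagln to 0.85 for Lsp1. At an adjusted p under 0.05 without the 2-fold condition, 40 of the 79 genes (50.6%) were higher, 7 more than with it, and 4 lower, against 35.2% and 34.7% of all genes tested.

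Matrix genes called higher at E16.5 were C1ql1 at 2.13 ± 0.16 (log2, SE), Spp1 at 2.10 ± 0.41, Ecm1 at 1.73 ± 0.22 and Adamts18 at 1.66 ± 0.36, and enzymes and transporters were Abcg5 at 3.15 ± 0.50, Aldh1a7 at 2.38 ± 0.27, Nipal4 at 1.69 ± 0.53, Slc40a1 at 1.39 ± 0.16 and Maob at 1.39 ± 0.43. Nipal4 was no longer called without E10.5 replicate 2 (adjusted p = 0.051). Lor, Serpinb6b, Shisal1 and Mir680-2 were also called higher. With limma on log2(FPKM + 1), Nipal4, Slc40a1, Maob, Serpinb6b and Shisal1 were not called, and neither were Ednrb, Ncam1, Fst, Mpo and Zcchc12. The genes called lower, besides Mpo, were Prnd at -1.60 ± 0.50 (adjusted p = 0.014), Ahcy at -1.31 ± 0.36 (adjusted p = 0.0073) and Zcchc12 at -1.09 ± 0.33 (adjusted p = 0.012). Zcchc12 was within 2-fold without E10.5 replicate 1 or E16.5 replicate 1, at -0.94 and -0.92.

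In the same model, 61 of the 79 genes were past the call in both contrasts that the rule used, and 0.826% of all genes tested were. These counts restate the choice and nothing is read from them.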

How the data were processed

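RNA was purified by the authors with oligo-dT beads and sequenced on an Illumina HiSeq. Per the labels and the methods, reads were mapped with Bowtie2 and HISAT (GRCm38) and quantified with RSEM, whose versions are not given in the sources used here. The deposited value per gene is an RSEM expected count, an estimate that is not normalized, and the deposited FPKM was computed by the authors from it with transcript length and library total. Symbols and coordinates came from RefSeq (GRCm38.p6) by Entrez identifier, for 19312 of 19369 genes.

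Stage means of FPKM gave the members. Rounded expected counts of all 9 samples were fitted with edgeR 4.0.16 in R 4.3.3 (filterByExpr, TMM, quasi-likelihood, 1 term per stage). limma 3.58.1 and DESeq2 1.42.0 served as alternatives, and the fit was tested on simulated data. Promoter windows and the microRNA are RefSeq sequences. The members, roles and gene lists were chosen with earlier results of these data known. A rule of rank within the set and within the lists named 54 members, and the others are given for completeness, except that 1 member is not reported here by name. Motif and list counts were not tested. Intervals and floors cover counting error only.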

Additional observations from a re-analysis of the deposited data

How the results depend on the processing

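Leaving out any 1 of the 9 samples gave 80 to 111 genes that met the rule. The number was 136 with FPKM rescaled to a common larger total, which raises every value against the 5 FPKM minimum, 203 and 37 with a ratio of at least 1.5 and 3, and 213 and 53 with an E14.5 mean of at least 1 and 10 FPKM. It was 71 with TMM-scaled FPKM and 97 with medians. Chosen after seeing the data were the rule in each E14.5 sample by itself (21 genes), protein-coding genes only (79) and a mean of at least 10 counts at E14.5 (81). Without E14.5 replicate 1, the remaining E14.5 samples lay above the other 6 in 81 members, and with TMM-scaled FPKM all 3 did in 68. For E16.5 against E10.5, adjusted p alone called 5197 of all genes higher and 5119 lower, and limma on log2(FPKM + 1) called 1856 higher. Without TMM, on library totals, the median of all genes moved to -0.15 on the log2 scale, with 2503 genes called higher and 2695 lower, against 2862 and 2282. Members called higher numbered 25 to 40 over all alternatives. Members called lower numbered 2 with limma on log2(FPKM + 1) and 2 to 5 when 1 sample was left out. Of the 37 called members, 27 kept their call under every alternative that gave a value, 4 had no value with only E10.5 and E16.5 in the model, and no called change turned its sign. The labels do not say whether the replicate numbers pair the samples. Deviations from the stage means correlated at -0.0341 on average over 9 pairs with the same number (-0.256 to 0.216). Over 18 pairs with different numbers the average was 0.0178. These averages do not settle whether samples were paired. With a replicate block, 2855 genes were called higher and 2285 lower, and 34 and 4 members. Small RNA genes are limited by depth.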
